A study of Mus musculus with 40 samples.

Results

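Ribosomes are assembled in the nucleolus, where RNA polymerase I transcribes the large ribosomal RNA precursor. Small nucleolar ribonucleoproteins modify that precursor, the small-subunit processome folds and cleaves it, and a separate set of factors builds the large subunit, while RNA polymerase III makes the smallest ribosomal RNA and the transfer RNAs. Hepatocytes that grow and divide after part of the liver is removed make many ribosomes, and the genes of this machinery are known as growth-regulated targets of MYC. The genes described here are 49 of the 11119 listed in mouse liver, taken by a rule on the gene symbol: subunits of RNA polymerases I and III, and factors of the Nop, Nol, Utp, Rrp, Imp and Wdr series with Pes1, Bop1, Fbl, Ncl, Npm1 and Mybbp1a.

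Polyadenylated RNA was sequenced from livers before partial hepatectomy (PH, removal of part of the liver, 0 h) and 48 and 72 h after it, with or without ATRi, an inhibitor of ATR, the kinase that senses stalled replication forks. There were 40 samples in 9 groups. At 12 months of age there were 8 mice at 0 h, 3 with ATRi at 48 h, 3 untreated at 48 h, 4 with ATRi at 72 h and 4 untreated at 72 h. At 3 months of age there were 7 mice at 0 h, 3 untreated at 48 h, 4 with ATRi at 72 h and 4 untreated at 72 h. Those 7 include mice labelled wt1, wt2 and wt3, where the others carry numbers, and the labels do not explain the difference. The labels give ATRi at 24 h after PH. The unit of its dose, any vehicle, and the strain and sex of the mice are not given in the sources used here.

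Levels are the authors' log2 values of a quantity they call sigma, which is not defined, so a gene's level, or a sum or median over a fixed list of genes, is compared between groups and not with that of other genes. Each group is given as a mean, and only the 12-month ATRi group at 72 h is also given liver by liver, for mice M545, M546, M547 and M548. A difference of 0.5 or more between means is counted as a difference, with no test. The 4 comparisons that involve the single livers were tested with limma over all genes. All 8 of the 12-month mice and 4 of the 3-month mice sampled at 72 h were also sampled at 0 h, which the tests treat as independent. Read depth is unknown.

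The labels name liver tissue and hepatocytes, and the 11 hepatocyte markers had medians of 8.26 to 10.02 over the 9 means. Markers of other liver cells were also present. The 9 macrophage markers had medians of 3.22 to 6.25 and the 8 neutrophil markers 0.20 to 3.52, both with the highest values in the 12-month groups at 72 h. In whole liver, fewer cells of a type and less RNA per cell cannot be told apart.

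By role, 3 members are subunits of RNA polymerase I, 9 of RNA polymerase III, and 4 form or chaperone the core of small nucleolar ribonucleoproteins. A further 21 belong to the small-subunit processome or to small-subunit maturation, 8 to large-subunit assembly, and 3 are abundant nucleolar proteins. The remaining gene, Nol4l, shares the name pattern and has no known part in ribosome assembly. Entries for Nop56, Polr1e, Nol7 and Nop9 are joined with another gene (Idh3b, Fbxo10, Ranbp9 and Cideb), so their values cannot be assigned to the member alone. The GENCODE annotation also gives exon overlaps with protein-coding genes for some members that are not joined, Wdr12, Pes1 and Bop1 among them. Dkc1, the pseudouridine synthase of box H/ACA particles, is listed only in a joined entry that the symbol rule does not take. Within 5 members (Nop56, Nop58, Ncl, Wdr43 and Polr3c) the GENCODE annotation places 16 small nucleolar RNA genes. That is 10.2% of members, against 1.71% of all matched entries.

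Promoter sequences are shown because CACGTG, the E-box that MYC and several other basic helix-loop-helix factors bind, lies in the promoters of a number of the members described below. RefSeq promoter windows on GRCm38.p6, from 250 bases before to 50 bases after a start, were matched for 38 of the 49 members. The motif, which reads the same on both strands, was found in 10 of these 38 (26.32%), against 11.27% of the 8618 genes of the tables that have a window. The 10 genes are Imp4, Mybbp1a, Nol11, Pes1, Polr3c, Polr3e, Polr3gl, Utp18, Utp20 and Wdr43. Of these, 5 hold it upstream of the start and 5 within the first 50 bases after it, as in Pes1 (beginning at base 3) and Polr3e (beginning at base 6). The 250 bases before the start are given for 3 members that passed a test below, with the E-box in capitals; from the start, its first base lies at -121 in Imp4, -194 in Polr3gl and -20 in Utp18. A match describes these letters in this window and is not a measured binding site.
Imp4 (chr1:34439579-34439828, plus strand): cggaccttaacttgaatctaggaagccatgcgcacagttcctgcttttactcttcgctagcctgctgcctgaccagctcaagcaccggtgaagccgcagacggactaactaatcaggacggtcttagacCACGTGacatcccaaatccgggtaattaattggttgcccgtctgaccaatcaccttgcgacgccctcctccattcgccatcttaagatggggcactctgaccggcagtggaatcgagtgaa
Polr3gl (chr3:96594182-96594431, minus strand): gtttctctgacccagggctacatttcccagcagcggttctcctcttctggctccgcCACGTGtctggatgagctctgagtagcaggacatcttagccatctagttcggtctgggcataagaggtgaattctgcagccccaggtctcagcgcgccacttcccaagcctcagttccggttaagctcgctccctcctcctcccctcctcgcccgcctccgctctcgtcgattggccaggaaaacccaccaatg
Utp18 (chr11:93885767-93886016, minus strand): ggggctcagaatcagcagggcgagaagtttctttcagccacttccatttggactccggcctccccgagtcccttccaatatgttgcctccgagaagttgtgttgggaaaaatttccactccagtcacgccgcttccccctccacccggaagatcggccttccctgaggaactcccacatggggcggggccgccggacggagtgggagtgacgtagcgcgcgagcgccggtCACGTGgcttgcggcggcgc

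Over the 9 group means the members varied less than most genes. The median range between a gene's highest and lowest mean was 0.60 for members and 0.82 for all genes, and 9 of 49 members (18.4%) had a range of 1 or more, against 37.4% of all genes. Between the 4 single livers the members varied more, with a median SD of 0.28 against 0.23 for all genes. The limma tests take their spread from these livers. The lowest mean of a member fell in the 12-month ATRi group at 72 h for 18 genes and in the untreated 12-month group at 72 h for 15. Across all genes those groups held the lowest mean of 21.7% and 14.9%. No member had its highest mean in the untreated groups at 72 h, where 4.19% of all genes had theirs at 12 months and 5.59% at 3 months.

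**Figure D1:**
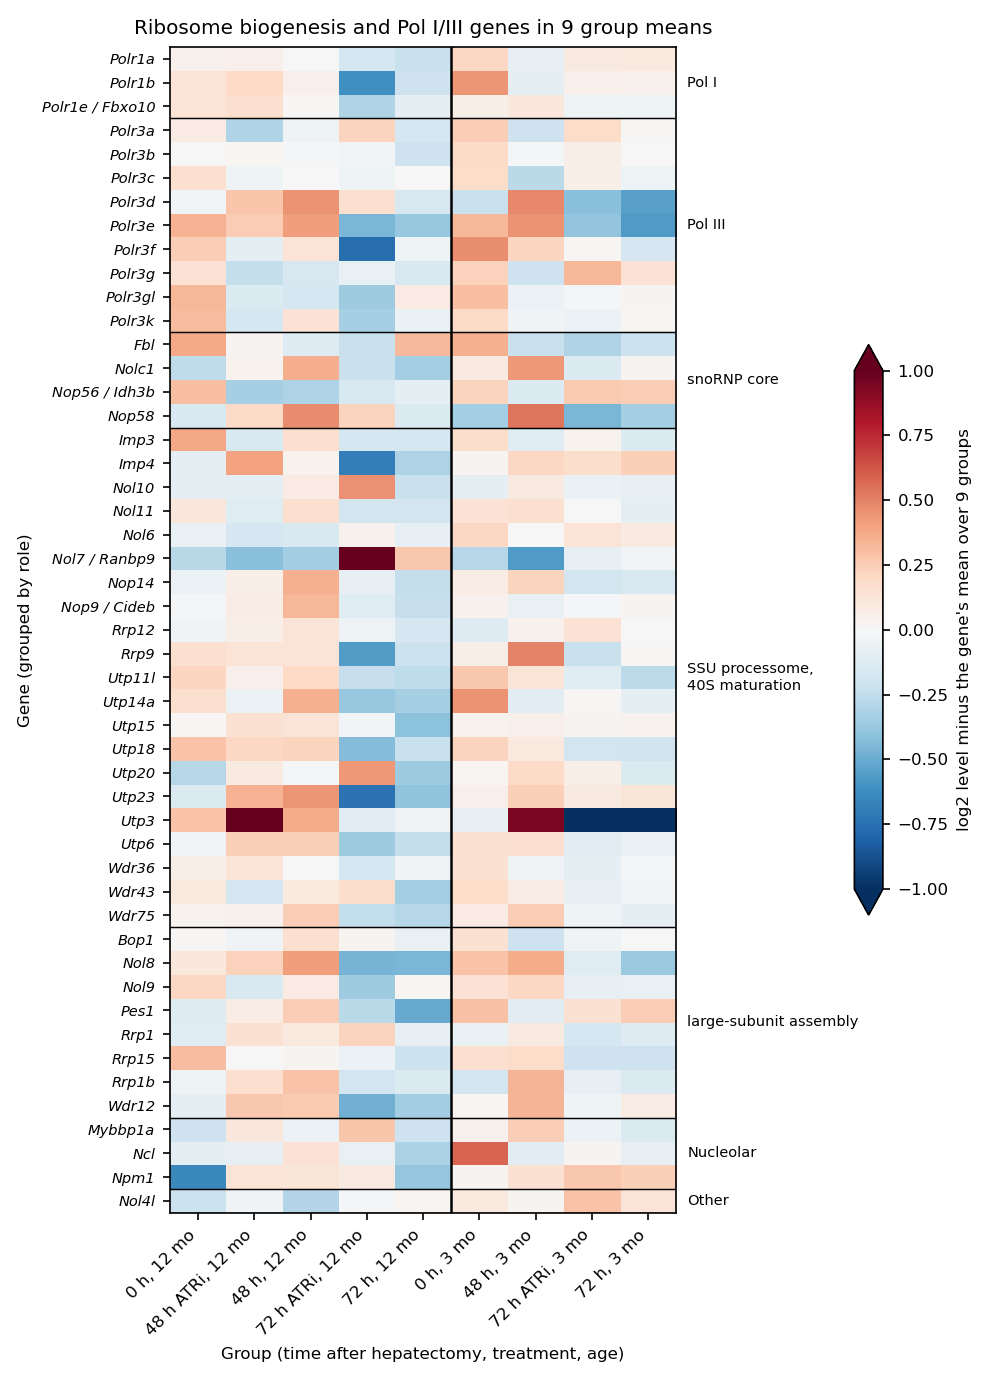
Level of each of the 49 genes (rows, grouped by role) in the 9 group means (columns, 12 months left of 3 months, ATRi left of untreated at the same time), as the log2 level minus the gene's mean over the 9 groups. The scale ends at -1 and 1. Most rows are bluest in the 12-month groups at 72 h, where 33 of the 49 genes had their lowest mean.

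The comparison of 48 h with 0 h shows what the machinery did by 48 h after PH. In 12-month livers 4 members were higher by 0.5 or more (9.94% of all genes) and 3 were lower (8.71%), and the median difference was 0.07, against -0.02 for all genes. The higher genes were Npm1, a nucleolar chaperone, with 2.79 at 48 h and 2.03 at 0 h, Nop58, a core protein of box C/D particles, with 5.02 and 4.38 (48 h and 0 h), Nolc1, the chaperone of those particles, with 5.27 and 4.65 (48 h and 0 h), and Utp23, with 3.99 and 3.41 (48 h and 0 h). The joined entry of Nop56 and Idh3b was lower, with 7.10 at 48 h and 7.71 at 0 h. Fbl, the methyltransferase of the same box C/D particles, was also lower, with 2.60 at 48 h and 3.11 at 0 h, as was Polr3gl, with 3.55 at 48 h and 4.06 at 0 h. The core proteins of one particle therefore had differences of opposite sign.

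In 3-month livers 4 members were higher at 48 h by 0.5 or more (10.5% of all genes) and 4 were lower (13.2%), with a median difference of 0.00 against -0.09 for all genes. Utp3, a processome factor encoded in a single exon, had 3.83 at 48 h and 2.81 at 0 h. Nop58 had 5.07 at 48 h and 4.20 at 0 h, Polr3d, a subunit of RNA polymerase III, 4.99 at 48 h and 4.28 at 0 h, and Rrp1b, of the large-subunit pathway, 3.42 at 48 h and 2.90 at 0 h. The lower genes were Ncl, the abundant rRNA-binding protein nucleolin, with 4.58 at 48 h and 5.27 at 0 h, Fbl with 2.51 and 3.09 (48 h and 0 h), Utp14a with 3.97 and 4.52 (48 h and 0 h), and Polr1b, a catalytic core subunit of RNA polymerase I, with 3.71 and 4.25 (48 h and 0 h). Nop58 was thus higher at 48 h at both ages, by 0.63 at 12 months and 0.88 at 3 months, and Fbl was lower at both, by -0.51 and -0.58 (12 and 3 months).

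Most markers of immune and endothelial cells had lower levels at 48 h than at 0 h, neutrophil and in part macrophage markers at 3 months aside. The lower ones at 12 months were 9 of 9 macrophage markers (median -0.89), 8 of 8 neutrophil (-0.59), 9 of 10 sinusoidal endothelial (-0.44), 6 of 7 T and NK cell (-0.31) and 6 of 6 B and plasma cell markers (-0.53). At 3 months the lower ones were 5 of 9 macrophage (median -0.20), 3 of 8 neutrophil (0.22), 10 of 10 sinusoidal endothelial (-0.48), 7 of 7 T and NK cell (-0.52) and 6 of 6 B and plasma cell markers (-0.53). The macrophage markers at 3 months had a summed linear level of 266.7 at 48 h and 227.6 at 0 h. Of the stellate cell and fibroblast markers, 8 of 11 were higher at 12 months (median 0.221) and 7 of 11 at 3 months (median 0.245). Hepatocyte markers were mixed, with 5 of 11 higher at 12 months and 6 of 11 at 3 months. The part of these cells in the members' differences was not tested.

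The subunits of the polymerases did not share one direction with the processome. At 48 h over 0 h, 2 of 9 subunits of RNA polymerase III were above 0 in 12-month livers (median -0.13) and 2 of 9 in 3-month livers (median -0.25), Polr3d and Polr3e at both ages. These pair with each other in the enzyme. Over all genes 51.8% were below 0 in 12-month livers and 60.7% in 3-month livers. Of the 21 processome and small-subunit factors, 14 were above 0 in 12-month livers (median 0.11) and 12 in 3-month livers (median 0.02). In the large-subunit group 6 of 8 were above 0 at both ages, with medians of 0.27 at 12 months and 0.07 at 3 months.

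No group behind these comparisons has single livers, so an added limma fit borrowed the spread of the 4 ATRi livers for all groups. In that fit Npm1 rose (0.77, SE 0.17, adjusted p = 0.041) and the Nop56 entry fell (-0.61, SE 0.10, adjusted p = 0.017) at 48 h over 0 h in 12-month livers, of 5.46% and 4.7% of all genes. In 3-month livers Nop58 rose (0.88, SE 0.22, adjusted p = 0.0496), where 6.49% of all genes rose and 7.06% fell. The difference between the ages in this response passed for 0 members in the same limma fit, with 58 higher and 63 lower among all genes, and 4 members (8.16%) had an unadjusted p under 0.05, against 15.3% of all genes. For Ncl, which was 0.24 higher at 12 months and -0.70 at 3 months, that difference was 0.93 (SE 0.29, adjusted p = 0.21).

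**Figure D2:**
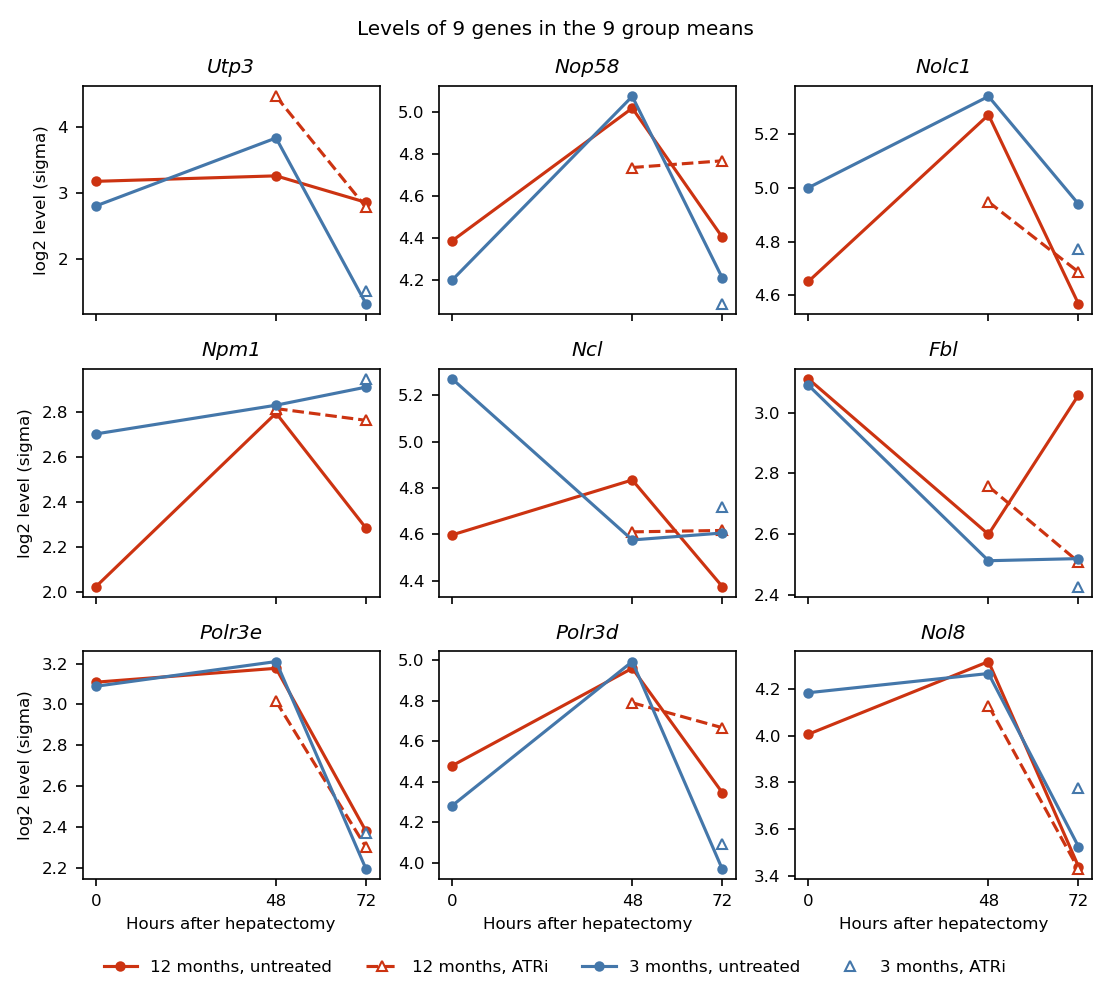
Levels (log2 sigma, vertical axes differ between panels) of 9 genes at 0, 48 and 72 h after PH as group means, with 12 months in red, 3 months in blue, untreated groups as filled circles and ATRi groups as open triangles. Nop58, Nolc1 and Polr3d peaked at 48 h in untreated livers of both ages, Polr3e lay between 2.19 and 2.38 in all 4 groups at 72 h, and Utp3 dropped to 1.32 at 72 h in untreated 3-month livers.

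In 12-month livers most members had a lower mean at 72 h than at 48 h. At 72 h 41 of 49 members were below their 48 h mean (60.0% of all genes), 14 were lower by 0.5 or more (14.5% of all genes) and 1 was higher (10.9%). The median difference was -0.34, against -0.10 for all genes and an SD of 0.16 for the members' median level over the 4 single livers. All 8 large-subunit factors, all 3 subunits of RNA polymerase I and 19 of 21 processome and small-subunit factors were below 0, with medians of -0.34, -0.22 and -0.40. The other roles were mixed, with 6 of 9 subunits of RNA polymerase III (median -0.19) and 2 of 4 core small nucleolar proteins (median -0.20) below 0, and Fbl (0.46), Polr3gl (0.26) and the Nop56 entry (0.21) above it. With the borrowed spread limma called 1 member lower, a joined entry named below, against 4.25% of all genes lower and 2.94% higher. Nol8 had 3.44 at 72 h and 4.32 at 48 h, Utp23 3.15 and 3.99 (72 h and 48 h), Polr3e 2.38 and 3.18 (72 h and 48 h), and Nolc1 4.57 and 5.27 (72 h and 48 h).

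Pes1, Bop1 and Wdr12 form the PeBoW complex, which processes the precursor of the large-subunit rRNA. Pes1 had 2.55 at 72 h and 3.30 at 48 h in 12-month livers, Bop1 3.33 and 3.57 (72 h and 48 h), and Wdr12 1.63 and 2.24 (72 h and 48 h). In 3-month livers Pes1 had 3.30 at 72 h and 2.95 at 48 h, Bop1 3.40 and 3.20 (72 h and 48 h), and Wdr12 2.05 and 2.32 (72 h and 48 h). Pes1 and Bop1 were thus lower at 72 h at 12 months and higher at 3 months, while Wdr12 was lower at both ages. The difference between ages in the change of Pes1 was -1.10 (SE 0.39, limma adjusted p = 0.28 with the borrowed spread).

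In 3-month livers 28 of 49 members were below their 48 h mean at 72 h (51.5% of all genes), 5 were lower by 0.5 or more (13.1% of all genes) and 1 was higher (10.8%), and the median difference was -0.10 against -0.02 for all genes. Utp3 had 1.32 at 72 h and 3.83 at 48 h, the widest difference of any member in the comparisons made. Polr3e had 2.19 at 72 h and 3.21 at 48 h, Polr3d 3.97 and 4.99 (72 h and 48 h), Nop58 4.21 and 5.07 (72 h and 48 h), and Nol8 3.53 and 4.27 (72 h and 48 h). In the limma fit with the borrowed spread Utp3 fell by 2.51 (SE 0.42, adjusted p = 0.029) and Polr3e fell by 1.02 (SE 0.21, adjusted p = 0.048), where 4.4% of all genes fell and 1.39% rose. At 12 months that fit called the joined entry of Nop9 and Cideb (-0.56, SE 0.11, adjusted p = 0.037). The difference between ages in the change from 48 to 72 h passed for 0 members, with 3 higher and 5 lower among all genes in limma, and 4 members (8.16%) had an unadjusted p under 0.05, against 14.1% of all genes.

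Levels of marker genes moved in the same interval. From 48 to 72 h in untreated 12-month livers all 9 macrophage markers were higher by 0.97 to 2.88, with a summed linear level of 831.1 at 72 h and 210.9 at 48 h. Of 8 neutrophil markers 7 were higher by 0.5 or more, with sums of 89.7 at 72 h and 14.0 at 48 h, while 6 of 11 hepatocyte markers were higher and 5 lower. In 3-month livers the macrophage markers were also higher in 9 of 9 genes, with a median difference of 0.37, against 2.06 at 12 months. Sinusoidal endothelial markers were higher in 10 of 10 genes at 12 months (median 0.60) and in 9 of 10 at 3 months (median 0.71). No macrophage marker had a level of 0, the lowest being 0.70. The part of these cells in the lower levels of the 49 genes was not tested.

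Set against 0 h, 44 of 49 members were lower at 72 h in untreated 12-month livers (60.0% of all genes) and 37 of 49 in 3-month livers (60.6%). The median differences were -0.22 at 12 months and -0.17 at 3 months, against -0.09 for all genes at both ages. All 9 subunits of RNA polymerase III and all 3 of RNA polymerase I were below 0 at both ages. Differences of 0.5 or more were fewer, with 5 lower and 1 higher at 12 months (10.2% and 10.2% of all genes) and 8 lower and 0 higher at 3 months (13.0% and 8.53%). Against the same 0 h mice, ATRi at 48 h in 12-month livers had 2 members higher (10.2%) and 2 lower (7.93%), and ATRi at 72 h in 3-month livers had 0 higher (6.85%) and 4 lower (10.9%). Comparisons of 48 h and of 72 h with 0 h share the 0 h mice, so their values are given side by side and are not independent.

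Polr3e, the RNA polymerase III subunit that pairs with Polr3d, had its lowest untreated mean at 72 h at both ages. It had 3.11, 3.18 and 2.38 at 0, 48 and 72 h in 12-month livers, and 3.09, 3.21 and 2.19 in 3-month livers. The ATRi groups had 3.01 at 48 h and 2.30 at 72 h at 12 months, and 2.37 at 72 h at 3 months. In the limma fit with the borrowed spread it fell at 72 h over 0 h by 0.73 at 12 months (SE 0.17, adjusted p = 0.042) and by 0.90 at 3 months (SE 0.18, adjusted p = 0.022). Imp3 (-0.57, SE 0.14, adjusted p = 0.045) and the Nop56 entry (-0.40, SE 0.09, adjusted p = 0.041) also fell at 12 months, and Utp3 (-1.48, SE 0.35, adjusted p = 0.037) fell at 3 months in that limma fit. Imp3 had low levels, 0.517 at 72 h and 1.084 at 0 h in 12-month livers. Over all genes 8.3% fell and 4.51% rose at 12 months, and 10.5% fell and 4.63% rose at 3 months.

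**Figure D3:**
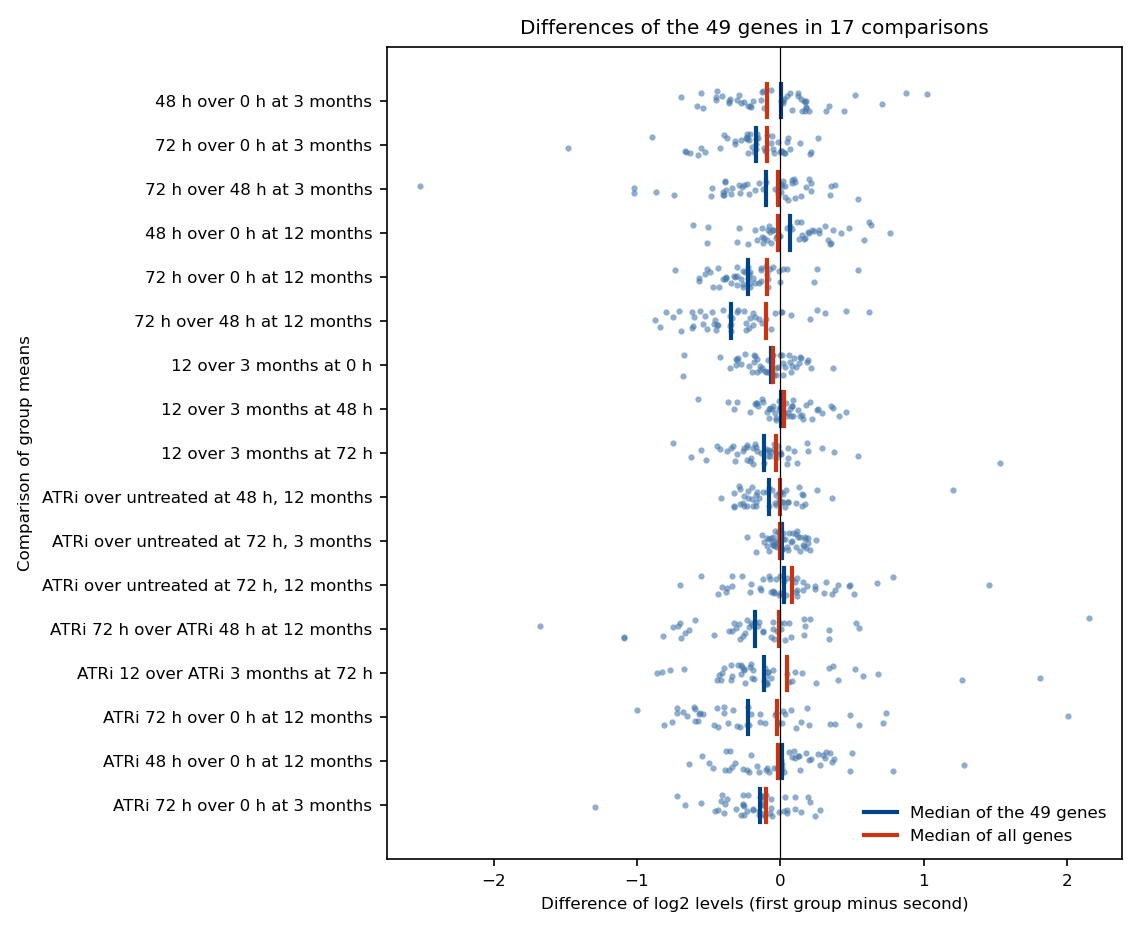
Differences of log2 levels (first group named minus the second) of the 49 genes in 17 comparisons of group means, 1 point a gene, with the median of the 49 genes in blue and of all 11119 genes in red. The widest gap between the medians in an untreated comparison is at 72 h over 48 h in 12-month livers (-0.34 against -0.10), and the points of ATRi over untreated at 72 h in 3-month livers all lie between -0.23 and 0.25.

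Age was compared at each time. Before PH 2 members were lower by 0.5 or more in 12-month livers (4.84% of all genes) and none was higher (4.76%). Npm1 had 2.03 in 12-month livers and 2.70 in 3-month livers, and Ncl had 4.60 and 5.27 (12 and 3 months). Pes1 followed with -0.42, Nolc1 with -0.35 and Nol4l with -0.31, while Utp3 (0.37), Imp3 (0.21), Polr3d (0.20), Nop58 (0.19) and Rrp15 (0.15) were the 5 highest. The median difference was -0.07, against -0.05 for all genes, and 32 of 49 members were below 0 (61.4% of all genes). In the limma fit with the borrowed spread Npm1 fell by 0.68 (SE 0.13, adjusted p = 0.043), where 2.38% of all genes fell and 2.45% rose. These Npm1 and Ncl values lie at the 0 h end of the courses described above, so the higher Npm1 at 48 h in 12-month livers and the lower Ncl at 48 h in 3-month livers both start from 0 h means that differed between the ages.

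At 48 h the ages were close, with a median difference of 0.01 and 1 member lower in 12-month livers by 0.5 or more (3.87% of all genes), Utp3 at 3.26 against 3.83 in 3-month livers. No member was higher by 0.5 or more (4.34%). At 72 h without ATRi 37 of 49 members were lower in 12-month livers (54.6% of all genes), 4 by 0.5 or more (6.65%), and 2 were higher by 0.5 or more (8.23%). Pes1 had 2.55 in 12-month livers and 3.30 in 3-month livers, Npm1 2.28 and 2.91 (12 and 3 months), Imp4, a protein of the U3 particle, 2.69 and 3.25 (12 and 3 months), and Utp23 3.15 and 3.67 (12 and 3 months). Utp3 was higher, at 2.86 in 12-month livers and 1.32 in 3-month livers, and so was Fbl, at 3.06 and 2.52 (12 and 3 months). With the borrowed spread limma called 0 members at 72 h and 0 at 48 h, where 6 members (12.2%) and 1 member (2.04%) had an unadjusted p under 0.05, against 19.7% and 8.66% of all genes (72 h and 48 h). Among all genes it called 1.12% higher and 0.746% lower at 72 h, and 0.0719% higher and 0.054% lower at 48 h. Macrophage markers were higher in 12-month livers in 9 of 9 genes at 72 h (median 0.94) and at 0 h (median 0.58), and their part was not tested.

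ATRi at 48 h in 12-month livers went with 1 difference of 0.5 or more among the members (3.72% of all genes higher, 2.6% lower). Utp3 had 4.46 with ATRi and 3.26 without it. Imp4 followed, with 3.41 with ATRi and 3.04 without, and then Nol4l (0.26), Mybbp1a (0.18) and Fbl (0.16). The lowest were Utp14a (-0.41), Nolc1 (-0.32), Imp3 (-0.32), Polr3k (-0.32) and Nop14 (-0.29). The median was -0.08 against 0.00 for all genes, 32 of 49 members were below 0 (50.1% of all genes), and limma with the borrowed spread called 0 members (0.018% of all genes lower, 0.0% higher), 1 member (2.04%) having an unadjusted p under 0.05, against 6.44% of all genes.

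ATRi at 72 h in 3-month livers went with no difference of 0.5 or more among the members (1.52% of all genes higher, 1.8% lower). The range ran from -0.23 for Rrp9 to 0.25 for Nol8. Utp20 (0.21), Polr3g (0.19), Utp3 (0.19) and Polr3f (0.18) were next at the upper end, and Nolc1 (-0.17), Nop58 (-0.12), Wdr12 (-0.11) and Pes1 (-0.09) at the lower end. The median difference was 0.01, and limma with the borrowed spread called 0 members and 1 of all genes, with 0 members and 5.08% of all genes at an unadjusted p under 0.05.

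ATRi at 72 h in 12-month livers went with larger differences in both directions. Of the members, 4 were higher by 0.5 or more (20.6% of all genes) and 2 were lower (7.82%), with a median of 0.02 against 0.08 for all genes. That median rests on the deposited ATRi mean. Liver by liver the members' median difference was -0.148, 0.05, -0.124 and -0.22 (M545 to M548), against 0.074, 0.036, 0.045 and 0.029 for all genes. All 4 livers lay below the untreated mean for 14 of 49 members (25.8% of all genes) and above it for 7 (34.7%). The joined entry of Nol7 and Ranbp9 had 4.82 as the ATRi mean and 3.37 untreated. Its livers M545, M546, M547 and M548 had 4.42, 3.69, 4.86 and 5.19, all above the untreated mean, M546 being the nearest to it. The difference was 1.46 (SE 0.34, limma adjusted p = 0.045).

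Utp20, a factor of small-subunit assembly, had 3.27 as the ATRi mean and 2.48 untreated. Its livers had 3.03, 2.998, 2.94 and 2.96, all above the untreated mean but all below the deposited ATRi mean. The difference was 0.79 with the deposited mean (SE 0.17, limma adjusted p = 0.041) and 0.50 with the livers as deposited (adjusted p = 0.082). Nol10 (0.68, SE 0.23, limma adjusted p = 0.091) and Wdr43 (0.52, SE 0.22, limma adjusted p = 0.15) were the other higher genes.

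Of the lower genes, Polr3f, of the RNA polymerase III trimer used in initiation, had 3.69, 4.20, 3.001 and 2.90 in the 4 ATRi livers and a mean of 4.46 untreated. All 4 livers lay below that mean, spread over more than 1 unit, and the difference of -0.70 did not pass. Fbl had 1.81, 3.05, 2.34 and 2.12 in the ATRi livers and 3.06 untreated, with M546 almost at the untreated mean (-0.55). Polr3gl (-0.43), Polr1b (-0.41) and Imp4 (-0.38) had all 4 livers below the untreated mean and did not pass limma.

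In all, 2 members rose with ATRi at 72 h in 12-month livers (9.67% of all genes rose) and 0 fell (3.04% fell, by limma), and 4 members (8.16%) had an unadjusted p under 0.05, against 34.6% of all genes. In this contrast 7 of 9 macrophage markers were lower (median -0.28) and 7 of 8 neutrophil markers higher (median 0.53), and their part was not tested. With each mean at weight 1, in place of its number of mice, 0 members and 0 of all genes passed. The 2 calls also ended without liver M545, M547 or M548, when 0, 0 and 1 of all genes passed, and 4 members passed without M546. The ATRi difference at 12 months minus that at 3 months passed for 0 members and for 1 of all genes, and 2 members (4.08%) had an unadjusted p under 0.05, against 24.4% of all genes. It was 1.52 for the Nol7 entry (SE 0.50, limma adjusted p = 0.14) and 0.58 for Utp20 (SE 0.23, limma adjusted p = 0.18).

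**Figure D4:**
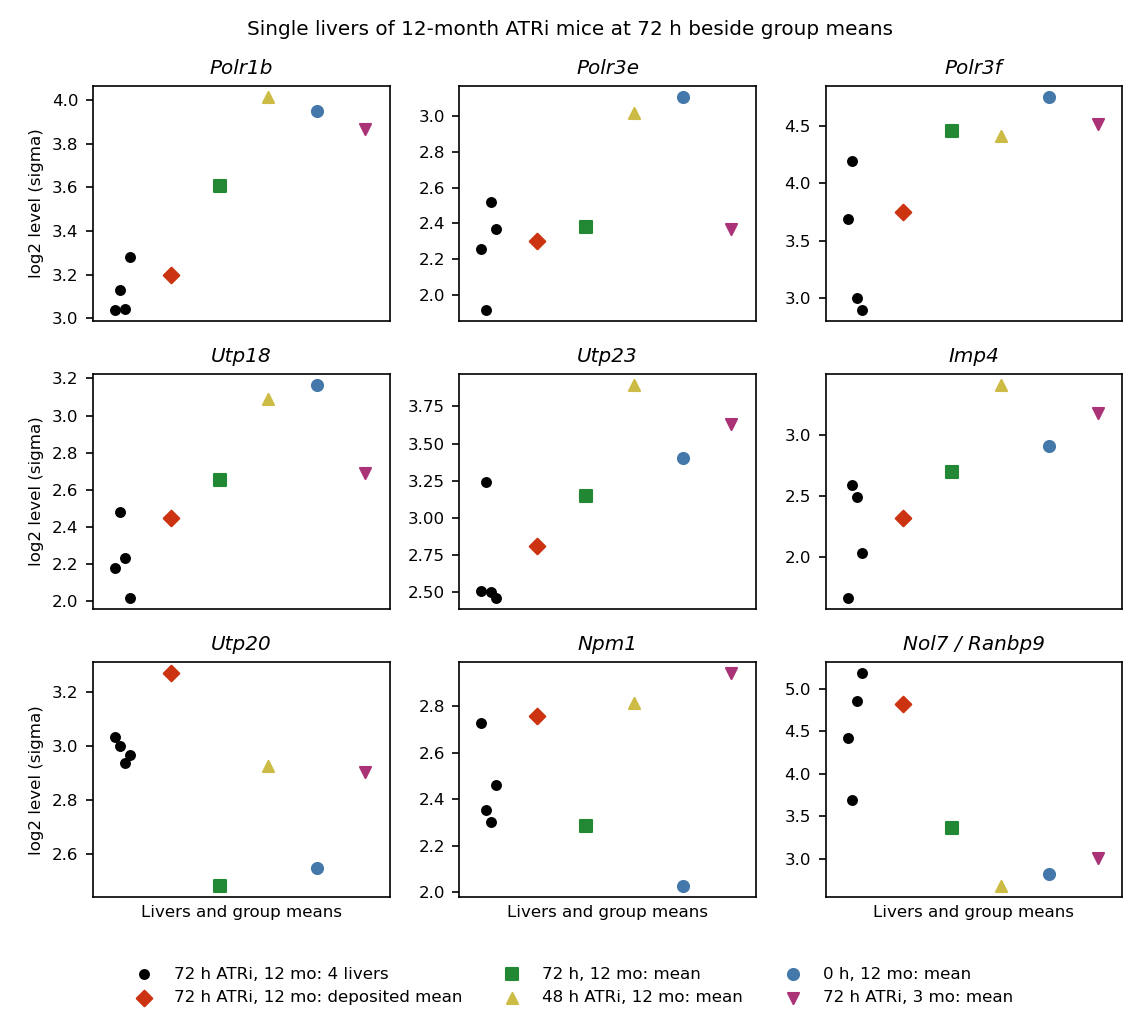
Levels (log2 sigma, vertical axes differ between panels) of 9 genes in the 4 single livers of 12-month ATRi mice at 72 h (black, in the order M545 to M548), beside the deposited mean of that group (red) and the means of 4 other groups. For Utp20 the 4 livers lie between 2.94 and 3.03 and the deposited mean at 3.27. For Polr1b all 4 livers, at 3.04 to 3.28, lie below the 4 other groups' means.

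Within the ATRi-treated 12-month mice, 72 h was set against 48 h. By limma 8 members fell (18.2% of all genes) and 1 rose (19.3%), and with each mean at weight 1 all 9 calls ended, while 1092 of all genes passed. Of the 3 subunits of RNA polymerase I, 2 fell. Polr1b had 3.04, 3.13, 3.04 and 3.28 in the livers at 72 h and a mean of 4.02 at 48 h, a fall by 0.82 (SE 0.19, limma adjusted p = 0.017). The joined entry of Polr1e fell by 0.46 (SE 0.10, adjusted p = 0.016 by limma).

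The processome factors that fell were Utp3, Utp23, Imp4 and Utp18. Utp3 had 3.58, 1.77, 2.71 and 2.69 in the livers at 72 h and 4.46 at 48 h, so all 4 lay below the earlier mean although they spread over 1.82 units (-1.68, SE 0.42, limma adjusted p = 0.021). Utp23 had 2.50, 3.24, 2.50 and 2.46 at 72 h and 3.90 at 48 h (-1.09, SE 0.26, limma adjusted p = 0.019). Imp4 had 1.66, 2.59, 2.49 and 2.03 at 72 h and 3.41 at 48 h (-1.09, SE 0.28, limma adjusted p = 0.023). Utp18 had 2.18, 2.48, 2.23 and 2.02 at 72 h and 3.09 at 48 h (-0.64, SE 0.20, limma adjusted p = 0.042). No liver of these 4 genes reached the 48 h mean.

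Wdr12 (-0.75, SE 0.17, limma adjusted p = 0.016) and Polr3e (-0.72, SE 0.21, limma adjusted p = 0.037) also fell, and the Nol7 entry rose by 2.15 (SE 0.37, limma adjusted p = 0.0069). The median difference of all members was -0.18 with the deposited mean, against -0.01 for all genes, and all 4 livers lay below the 48 h mean for 29 of 49 members (37.9% of all genes). Liver by liver the members' median difference was -0.46, -0.15, -0.39 and -0.49 (M545 to M548), against -0.015, -0.061, -0.029 and -0.047 for all genes. The count of 9 fell to 4 without liver M547 and to 3 without M548. Macrophage markers were higher in the same contrast in 9 of 9 genes, with sums of 755.1 at 72 h and 233.2 at 48 h, and neutrophil markers in 8 of 8, with sums of 119.1 and 16.1 (72 h and 48 h), and their part was not tested.

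Against 0 h, the same ATRi livers had 11 members that fell (22.9% of all genes) and 3 that rose (25.6%) by limma, and with each mean at weight 1 all 14 calls ended, while 742 of all genes passed. Of those that fell, 6 are polymerase subunits, with Polr1b and Polr1e of RNA polymerase I, and Polr3e, Polr3f, Polr3gl and Polr3k of RNA polymerase III. Polr3e had 2.26, 1.92, 2.52 and 2.37 in the livers and 3.11 at 0 h (-0.81, SE 0.17, limma adjusted p = 0.0090). Polr3gl, the alternative to Polr3g in the trimer, had 2.88, 3.34, 3.03 and 2.98 in the livers and 4.06 at 0 h (-0.68, SE 0.17, limma adjusted p = 0.015). Its 4 livers were also below the deposited ATRi mean of 3.38.

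Polr3f fell by 1.001 (SE 0.29, limma adjusted p = 0.027), Polr3k, the small subunit used in termination, by 0.65 (SE 0.19, limma adjusted p = 0.031), Polr1b by 0.76 (SE 0.15, limma adjusted p = 0.0075) and the Polr1e entry by 0.44 (SE 0.08, limma adjusted p = 0.0063). The other subunits did not pass. Polr1a, the largest subunit of RNA polymerase I, had -0.22, and Polr3a, its counterpart in RNA polymerase III, had 0.15. Polr3b, the other catalytic subunit of RNA polymerase III, had -0.03, Polr3c -0.20, Polr3g -0.22 and Polr3d 0.19. The positive values of Polr3a and Polr3d rest on the deposited ATRi mean. The livers' own means were 3.39 and 4.25, below the 0 h means of 3.56 and 4.48 (Polr3a and Polr3d).

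Outside the polymerases, Utp18 (-0.72, SE 0.16, limma adjusted p = 0.011), Imp3 (-0.57, SE 0.13, limma adjusted p = 0.013), the Nop56 entry (-0.46, SE 0.10, limma adjusted p = 0.0095), Utp14a (-0.54, SE 0.15, limma adjusted p = 0.027) and Nol9, a polynucleotide kinase of large-subunit rRNA processing (-0.56, SE 0.16, limma adjusted p = 0.027), also fell. Imp3 levels were low, with 0.735, 0.272, 0.919 and 0.842 in the livers, 0.515 as the deposited ATRi mean and 1.084 at 0 h. Npm1 rose, with 2.73, 2.35, 2.30 and 2.46 in the livers and 2.03 at 0 h (0.74, SE 0.16, limma adjusted p = 0.0098), and all 4 livers lay above the 0 h mean. All 4 also lay below the deposited ATRi mean of 2.76, and their own mean was 2.46. Utp20 (0.72, SE 0.15, limma adjusted p = 0.0076) and the Nol7 entry (2.004, SE 0.30, limma adjusted p = 0.0026) rose too. The untreated 72 h mean of Npm1 was 2.28, between the ATRi and 0 h means.

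Liver by liver, 39, 34, 38 and 40 of the 49 members were below the 0 h mean in M545, M546, M547 and M548, against 50.7%, 55.1%, 51.6% and 52.5% of all genes. All 4 livers were below it for 30 members (36.6% of all genes) and above it for 7 (31.5%). These counts set livers against a mean, and the deposited mean of the ATRi group lay above the mean of its own livers by a median of 0.15 for members and 0.09 for all genes. Macrophage markers were higher in 6 of 9 genes (median 0.46) and neutrophil markers in 7 of 8 (median 1.44) against 0 h, and their part was not tested. The count of 14 passing members was 9 without M547 or M548, 24 without M546, and 23 with the livers as deposited.

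With ATRi at 72 h, 12-month livers were compared with 3-month livers. By limma 4 members fell (10.6% of all genes) and 2 rose (18.6%), and with each mean at weight 1 all 6 calls ended, while 8 of all genes passed. Polr1b was 3.20 as the 12-month mean and 3.87 as the 3-month mean (-0.67, SE 0.18, limma adjusted p = 0.032), Imp4 was 2.32 and 3.18 (12 and 3 months, -0.86, SE 0.26, limma adjusted p = 0.045), and Utp23 was 2.81 and 3.63 (12 and 3 months, -0.83, SE 0.24, limma adjusted p = 0.044). The Nop56 entry was lower by -0.42 (SE 0.12, limma adjusted p = 0.036). Utp3 rose, at 2.78 and 1.51 (12 and 3 months, 1.27, SE 0.38, limma adjusted p = 0.048), and so did the Nol7 entry (1.81, SE 0.34, limma adjusted p = 0.013). All 6 of these entries differed in the same direction between the ages without ATRi at 72 h, where no test on livers exists. The share of all called genes that did so was not computed, so this count has no background to be set against. Macrophage markers were higher in 12-month livers in 9 of 9 genes (median 1.51) and neutrophil markers in 8 of 8 (median 2.64), and their part was not tested. The count of 6 was 3 without M545 and 1 without M547 or M548.

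Genes of the same pathway that the symbol rule leaves out also had medians below 0 at 72 h over 48 h at both ages. In 12-month livers 26 of 33 other large-subunit factors, 25 of 30 other small-subunit factors and 16 of 21 factors of RNA polymerases I and III were below 0, with medians of -0.36, -0.28 and -0.33, against 60.0% of all genes and a median of -0.10. In 3-month livers 27 of 33, 22 of 30 and 13 of 21 were below 0, with medians of -0.17, -0.17 and -0.07, against 51.5% of all genes and a median of -0.02. At 48 h over 0 h in 12-month livers the medians of these lists were 0.07, 0.01 and 0.06. The genes of these lists named here were taken for the largest differences at 48 h over 0 h in 12-month livers, so values that use that 48 h mean are given with no test. Taf1d, a subunit of the RNA polymerase I selectivity factor, had 6.57, 7.72 and 6.57 at 0, 48 and 72 h in 12-month livers and 6.96, 7.16 and 7.37 in 3-month livers.

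Rpf2 and Rsl24d1, both of large-subunit assembly, had a like course. Rpf2 had 0.94, 1.60 and 1.19 at 0, 48 and 72 h in 12-month livers and 1.09, 1.34 and 2.09 in 3-month livers. Rsl24d1 had 1.22, 1.94 and 1.60 in 12-month livers and 1.497, 1.85 and 2.58 in 3-month livers. For both, 72 h lay below 48 h at 12 months and above it at 3 months, where they were among only 6 of the 33 other large-subunit factors above 0. Rpf2 rose there (0.75, SE 0.13, limma adjusted p = 0.033 with the borrowed spread).

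Myc itself, the transcription factor, had 2.41, 3.01 and 2.37 at 0, 48 and 72 h in untreated 12-month livers and 2.37, 2.48 and 3.02 in 3-month livers. The ATRi livers at 72 h had 2.70, 2.04, 3.39 and 2.38 at 12 months, a spread as wide as the differences between groups. Neither step passed limma with the borrowed spread (adjusted p = 0.28 for 48 h over 0 h and 0.27 for 72 h over 48 h at 12 months). Mycl, a related factor, had 2.76 at 48 h and 3.63 at 0 h in 12-month livers, the comparison it was taken for. In 3-month livers it fell by 0.96 at 48 h over 0 h (SE 0.18, limma adjusted p = 0.020 with the borrowed spread).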

How the data were processed

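The authors deposited 12 tables of log2 sigma levels for 11119 genes, with 9 group means and 4 single livers. Per the submitters' processing notes the build is GRCm38/mm10; the aligner, counting, strand use, scaling and averaging are not given in the sources used here. Members were taken by symbol. The members, role lists and related lists were chosen with earlier results of these data known. Differences are first minus second group. Tests used limma 3.58.1 in R 4.3.3 (trend, robust, two-sided, Benjamini-Hochberg over all genes): the 4 livers, shifted gene by gene to the deposited mean, with weight 1, against the other mean as 1 observation weighted by its mice, so that all spread comes from the 4 livers. These are of 4 different mice, and the technical and biological parts of the spread between them cannot be told apart. The shift moves only the difference. The 9-group fit with borrowed spread was added after seeing the data. Only the fit of the 4 livers against 1 mean was tested on simulated data. There the deposited mean equalled the livers' mean and both groups varied alike, so an offset or unequal spread was not covered. Named genes are the 5 highest and 5 lowest members of 8 comparisons, the polymerase subunits, a few fixed nucleolar genes, up to 10 members per test, genes among the 4 of each related list with the largest difference at 48 h over 0 h at 12 months, and Myc. Genes were matched to GENCODE M21.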

Additional observations from a re-analysis of the deposited data

Results flagged for a closer look

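For 2 of the 49 members 1 of the 4 single livers of the 12-month ATRi group at 72 h stood apart from the other 3 by Dixon's test, which chance passes in about 1 of 20 such groups. For Nol4l liver M545 had 1.33, the other livers lying at 0.98 to 1.01. For Utp23 liver M546 had 3.24, the other livers lying at 2.46 to 2.50.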

How the results depend on the processing

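The members' median difference stayed within 0.16 (1 SD over livers) in 87 of 89 alternatives (centring on all genes, a pseudocount of 1, a mean level of at least 2, the livers' own mean, no joined entries, no Nol4l). Several of the medians were themselves smaller than 0.16, among them 0.025 for ATRi over untreated at 72 h in 12-month livers. For these a change of sign could still count as staying within 0.16, so their sign is not shown to be stable. With the mean of the livers' log2 levels in place of the deposited mean the members' median difference was -0.38 for ATRi 72 h over ATRi 48 h and -0.31 for ATRi 12 over 3 months. Counts of passing members depended on the fit. With each mean at weight 1 the limma count was 0 in all 4 tested comparisons. For ATRi over untreated at 72 h it was 0 with livers as deposited, 1 without trend and robust options, 1 with centring, and 0 to 4 without 1 liver. Leaving out a liver gave 3 to 12 for ATRi 72 h over ATRi 48 h, 1 to 9 for ATRi 12 over 3 months and 9 to 24 for ATRi 72 h over 0 h, where livers as deposited gave 23. The cause was not tested. The fit of all 9 groups, added after seeing the data, gave 2, 9, 5 and 14 passing members, against 2, 9, 6 and 14. At a size of 1 in place of 0.5, 0 members were lower at 72 h over 48 h at 12 months. Read depth is unknown, and each untested difference rests on 1 mean per group. No paired analysis was possible because the tables hold group means, and single livers for 1 group only.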
